A study of Mus musculus with 5 samples.

Results

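Ribosome biogenesis and RNA polymerase I genes were examined in adult mouse cardiomyocytes, as a list of 58 named genes, of which 57 matched a symbol in a deposited table of 12446 genes. Noc2l was not analysed here. Cardiomyocytes are the contractile muscle cells of the heart. OSKM-CMs, with 3 libraries numbered 1 to 3, are cells of mice that received a mixture of AAV9 vectors carrying Oct4-His6, Sox2-Flag, Klf4-HA and Myc-V5, the 4 reprogramming factors. Control-CMs, with 2 libraries numbered 3 and 5, are cells of mice that received an AAV vector for BFP, a blue fluorescent protein. All mice were male C57BL/6 mice injected at 8 weeks of age, and the cells are labelled as coming from mice of 12 to 14 weeks. Every vector used the cTnT promoter, that of cardiac troponin T, which restricts expression largely to cardiomyocytes. Whether the libraries are of different mice is not stated in the labels, and p-values therefore measure the spread between libraries, which may be technical.

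A ribosome is built in the nucleolus, where RNA polymerase I transcribes the ribosomal DNA repeats into a long precursor RNA. Small nucleolar ribonucleoproteins (snoRNPs) modify this precursor, the small subunit processome and late factors shape the small subunit, and a separate set of assembly factors shapes the large subunit. The pathway limits how fast a cell can grow. Adult cardiomyocytes seldom divide, and nucleolar growth is a known feature of their hypertrophy. Myc, one of the delivered factors, is known from many cell types as an activator of genes for ribosome production, in part through the DNA sequence CACGTG, the E-box.

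Most of these genes were higher in OSKM-CMs. Of the 57 genes tested, 38 rose and 1 fell (limma, Benjamini-Hochberg adjusted p below 0.05 over all 10915 tested genes), and 18 did not pass. Among all tested genes, 15.9% rose and 14.3% fell. The median log2 fold change of the 57 genes was 0.66, against 0.02 for all tested genes. A value above 0 was found for 51 of the 57 genes, compared with 51.8% of all tested genes. Means differed at least 2-fold for 16 of the genes that rose, a change that 9.02% of tested genes showed. In 45 genes every OSKM-CMs library lay above both Control-CMs libraries, as did 30.0% of tested genes, and in 2 genes every OSKM-CMs library lay below (27.8% of tested genes). The genes that rose did so by 1.28-fold to 3.27-fold in mean level, which is a moderate range. Their direction held in all alternatives tried, but the number higher was 24 without OSKM-CMs replicate 3 (10.7% of all tested genes rose in that fit) and 25 without Control-CMs replicate 5 (12.1%). In the authors' deposited table, 38 of the 57 genes were higher and none lower at an FDR below 0.05, against 16.4% higher and 15.4% lower among its 12446 genes. The 38 genes were not all the same. Dkc1 and Polr1a passed there (authors' FDR of 0.032 and 0.0438) but not here. Ddx56 and Rrp1, higher here, did not pass there (authors' FDR of 0.063 and 0.0774), nor did Lyar, the gene that fell here (0.0587).

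**Figure D1:**
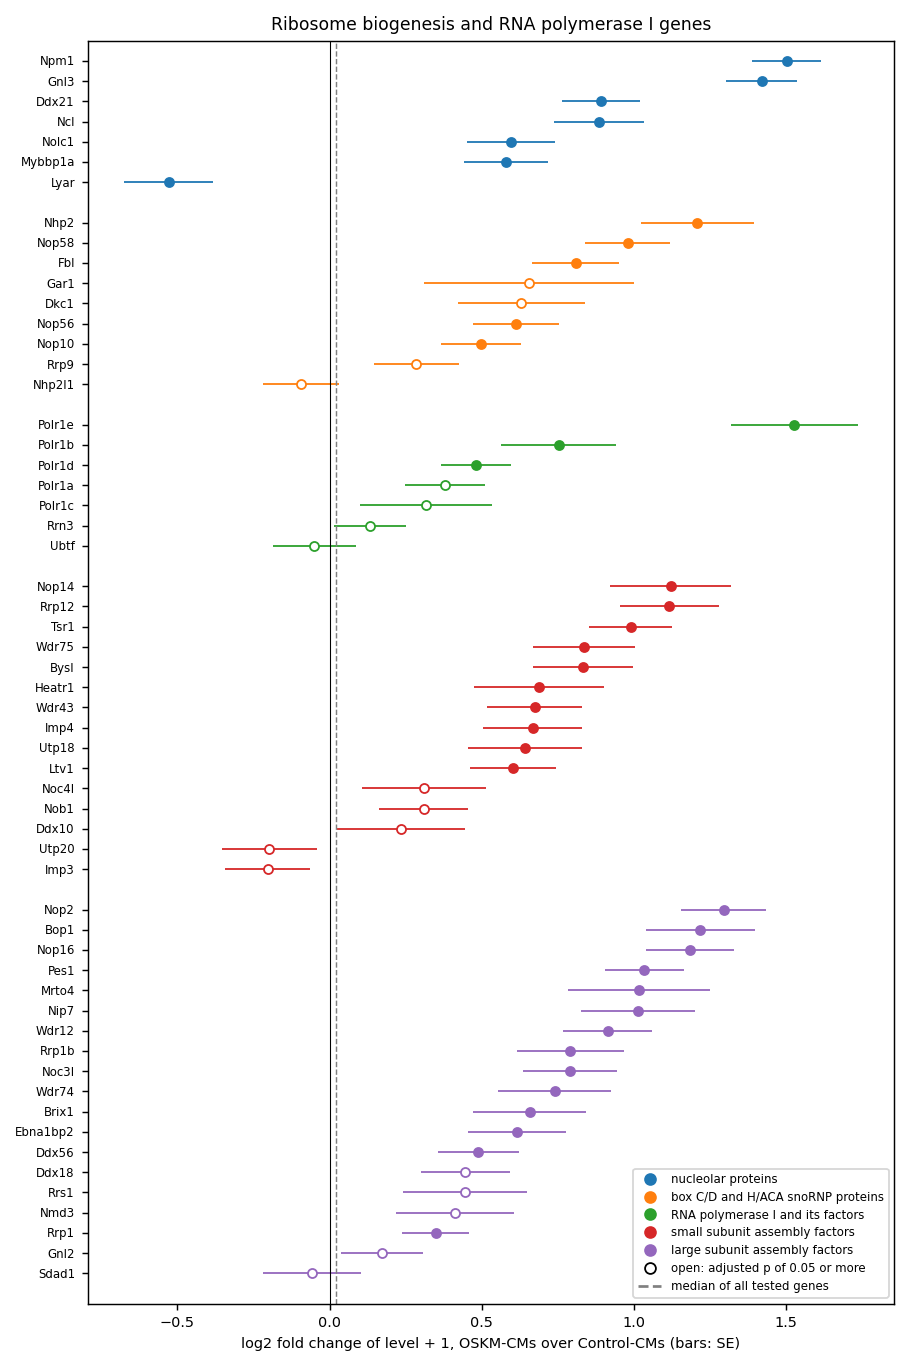
Log2 fold change of each of the 57 genes with its SE (x axis, OSKM-CMs over Control-CMs, on the log2 scale of level + 1), grouped by role from top to bottom. Filled points passed at an adjusted p below 0.05, open points did not, and 51 of 57 points lie right of 0.

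Levels are given as scaled RPKM, reads per kilobase of gene and scaled to depth, divided by a scaling factor that aligns the bulk of genes between libraries. The summed level of the 57 genes was 878, 879 and 905 scaled RPKM across the OSKM-CMs libraries 1 to 3, against 524 and 534 for the Control-CMs pair. Without Npm1, the gene with the highest level of the list, the sums were 746, 741 and 773 in OSKM-CMs and 480 and 483 in Control-CMs. The groups were well apart in both sums. Reads of the 57 genes made up 0.288%, 0.288% and 0.301% of the reads of the OSKM-CMs libraries, and 0.136% and 0.124% of those of the Control-CMs libraries. These shares do not use the scaling factor and hold a general shift. With library totals alone, the median log2 fold change of all tested genes was 0.36. Transcripts of Myc itself stood at 35.2, 28.4 and 21.5 scaled RPKM in OSKM-CMs, against 0.474 and 0.598 in Control-CMs. Reads of the delivered and the endogenous Myc were not separated. The OSKM-CMs library with the least Myc, replicate 3, had the highest summed level of the 57 genes but the lowest median level in its group. That median was 10.4 scaled RPKM, against 10.95 and 11.4 in replicates 1 and 2. A relation between the level of Myc and these genes was not tested. Ranked only against each other, no single OSKM-CMs library held most of the highest values: replicates 1, 2 and 3 were highest for 15, 21 and 21 genes.

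**Figure D2:**
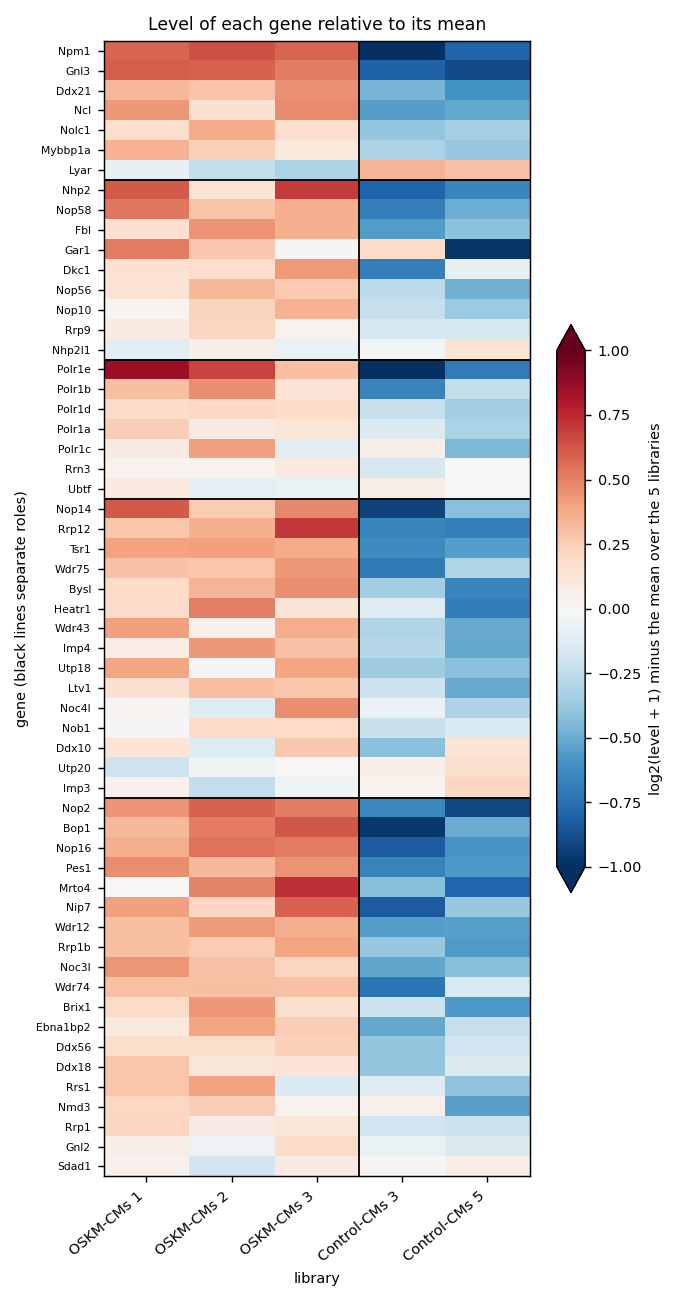
Level of each of the 57 genes (rows, black lines between roles) in each library (columns), as log2(level + 1) minus the gene's mean over the 5 libraries; colours saturate at 1 on either side. The 3 OSKM-CMs columns are mostly red and the 2 Control-CMs columns mostly blue, apart from Lyar and a few genes near 0 such as Ubtf, Nhp2l1 and Sdad1.

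The depth was modest, and somewhat greater in Control-CMs. Reads over the listed genes totalled 2691797 to 2780753 per OSKM-CMs library and 3519628 and 3861806 in the Control-CMs libraries, and the median count of a gene of the list in a library was 83 reads. All 57 genes met the minimum mean of 1 RPKM, and the lowest single value was 2 reads, for Gar1. Cardiomyocyte markers were read in all libraries, but their summed level was 8979, 10088 and 8760 scaled RPKM in OSKM-CMs and 18323 and 20175 in Control-CMs. Of 8 such markers 6 fell, 1 rose (Nppa) and 1, Actn2, did not pass. Among markers of other cell types, 4 of 8 tested fibroblast markers rose and the others did not pass, and their summed level was 197.5, 92.0 and 206.5 in OSKM-CMs against 74.9 and 37.9 in Control-CMs. Endothelial markers summed to 80.6, 38.0 and 55.7 in OSKM-CMs against 116.6 and 91.3 in Control-CMs, with 2 of 9 lower. Mural markers summed to 97.4, 60.0 and 84.8 in OSKM-CMs against 86.0 and 69.0 in Control-CMs, with 2 of 6 higher. Of 10 immune markers, 3 matched a symbol in the deposited table and 2 were tested, and the others have no values here. The 3 were low everywhere, at sums of 1.31 to 4.36 in OSKM-CMs and 1.64 to 6.66 in Control-CMs. Ptprc, the untested one of them, was at 0 in OSKM-CMs replicate 2. That library had the lowest sum of fibroblast markers in its group, though a higher sum than either Control-CMs library. The fibroblast markers that rose were Postn, Col1a1, Col1a2 and Col3a1. Dcn, Lum, Pdgfra and Dpt did not pass. In OSKM-CMs replicate 2 each of these lay below Control-CMs replicate 3 (Dcn at 28.3 against 42.2) and above Control-CMs replicate 5. The summed level of the 57 genes was 879 in OSKM-CMs replicate 2, beside 878 and 905 in replicates 1 and 3. The part of other cell types in the results was not tested. In bulk RNA a change in the number of cells of a type and a change in RNA per cell cannot be told apart.

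Promoter sequences from RefSeq (GRCm38.p6, 250 bases before to 50 after each transcript start) were searched for the E-box CACGTG, which reads the same on both strands. Sequences were found for 50 of the 57 analysed genes and for Noc2l. Those sequences are 60 windows, and 12 of them (20%) held the motif, compared with 7.15% of all 32851 promoter windows and 10.4% of the windows of tested genes. The median G+C content was 58.8% in the windows of the list and 61.0% in those of tested genes. Of 34 genes that rose and had a window, 8 held the motif (23.5%), and of 15 that did not pass, 4 did (26.7%), beside 909 of 7334 tested genes with a window (12.4%). These shares come from few genes and were not tested against each other. Stretches from 3 genes that rose (Nop2, Pes1 and Tsr1) and from 3 that did not pass (Rrn3, Sdad1 and Utp20) are shown so that the motif can be seen in both kinds. Each is written 5′ to 3′ on the gene's strand, with CACGTG in capitals.
Nop2, chr6:125131801-125131850, plus strand: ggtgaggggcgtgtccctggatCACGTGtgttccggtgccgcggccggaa
Pes1, chr11:3963965-3963994, plus strand: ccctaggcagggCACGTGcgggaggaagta
Tsr1, chr11:74898092-74898121, plus strand: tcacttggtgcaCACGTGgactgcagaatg
Rrn3, upstream copy, chr16:13780462-13780511, plus strand: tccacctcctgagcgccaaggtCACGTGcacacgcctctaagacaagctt
Rrn3, downstream copy, chr16:13780629-13780678, plus strand: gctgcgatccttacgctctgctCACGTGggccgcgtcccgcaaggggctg
Sdad1, chr5:92309986-92310015, minus strand: agcggcgtgtccCACGTGccgtttccggtt
Utp20, chr10:88826765-88826789, minus strand: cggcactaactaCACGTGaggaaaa
The motif began 60 bases before the transcript start in Nop2 and 215 and 48 bases before it in Rrn3. It lay just after the start in Pes1, Tsr1, Sdad1 and Utp20, at bases 3, 25, 22 and 38 of the transcript. A match describes these letters and is no measurement of binding.

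Among RNA polymerase I and its initiation factors, 3 of 7 genes rose and 4 did not pass, with a median log2 fold change of 0.38. Polr1e (ENSMUSG00000028318.8), the subunit homologous to yeast Rpa49 that aids initiation and elongation, had the largest log2 fold change of the 57 genes with all libraries and 1 added before logs. Npm1 and Gnl3 exceeded it with 5 added (1.43 and 1.15, against 1.08 for Polr1e), Npm1 with library totals alone (1.91, against 1.89) and without OSKM-CMs replicate 1 (1.51, against 1.40), and Npm1, Gnl3 and Nop2 did so without Control-CMs replicate 3 (1.40, 1.46 and 1.43, against 1.31 for Polr1e). The level of Polr1e was 19.1, 16.8 and 12.7 scaled RPKM in OSKM-CMs, in the order of their numbers, and 4.06 and 5.85 in Control-CMs. All 3 OSKM-CMs values lay above both controls, and the mean was 3.27-fold higher, at 16.2 ± 3.24 (SD, n = 3) against 4.96 ± 1.27 (SD, n = 2; 1.53 on the log2 scale with an SE of 0.21, limma adjusted p = 0.00184). Polr1b, which forms the catalytic centre together with Polr1a, stood at 6.06, 6.92 and 5.30 in OSKM-CMs against 2.61 and 3.87 in Control-CMs, and rose 1.88-fold (limma adjusted p = 0.0217). Polr1d, a subunit shared with RNA polymerase III, was at 26.1, 26.5 and 26.0 scaled RPKM in OSKM-CMs and at 19.3 and 17.7 in Control-CMs, a rise of 1.42-fold (limma adjusted p = 0.0176). Both calls, but not the direction, were lost when single libraries were left out. Polr1b did not pass without OSKM-CMs replicate 1 or 2 or Control-CMs replicate 3 (0.54 to 0.75 on the log2 scale against 0.75 with all libraries, limma adjusted p from 0.0574 to 0.109). Polr1d did not pass without OSKM-CMs replicate 1 or 3 or Control-CMs replicate 5 (0.42 to 0.49 on the log2 scale against 0.48, limma adjusted p from 0.0516 to 0.0954).

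Polr1a, Polr1c, Rrn3 and Ubtf did not pass. Polr1a encodes the largest subunit and had 18.4, 16.3 and 16.8 scaled RPKM in OSKM-CMs against 13.9 and 12.1 in Control-CMs. Its groups did not overlap, but the log2 fold change of 0.38 did not meet the threshold (limma adjusted p = 0.0629), which it met with limma voom on whole reads (0.40, adjusted p = 0.0275). Polr1c, also shared with RNA polymerase III, had overlapping groups at 7.88, 10.2 and 6.76 in OSKM-CMs and 7.79 and 5.15 in Control-CMs (limma adjusted p = 0.307). Rrn3, which bridges the enzyme to the promoter and whose promoter holds a pair of E-boxes, was at 26.0, 26.1 and 27.1 scaled RPKM in OSKM-CMs and 22.6 and 25.4 in Control-CMs. Its groups were close, 0.13 apart on the log2 scale (SE 0.12, limma adjusted p = 0.432). Ubtf, the factor that binds along active ribosomal DNA, had 9.46, 8.20 and 8.34 in OSKM-CMs and 9.21 and 8.80 in Control-CMs. These values overlapped, and the log2 fold change was -0.05 (SE 0.14, limma adjusted p = 0.807).

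**Figure D3:**
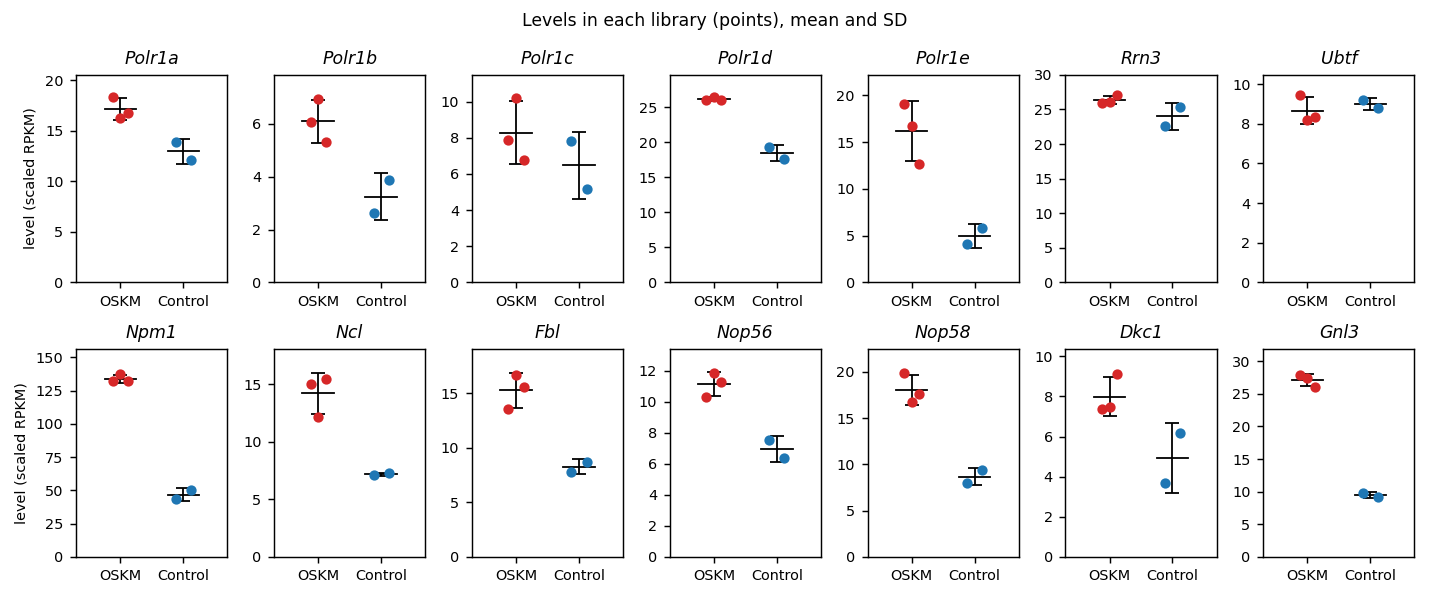
Level in scaled RPKM (y axis, from 0) of the 7 RNA polymerase I genes (upper row) and of 7 nucleolar and snoRNP genes (lower row) in OSKM-CMs (red, left) and Control-CMs (blue, right). Points are libraries, with mean and SD; the groups of Polr1e, Npm1 and Gnl3 lie far apart, and those of Polr1c and Ubtf overlap.

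Of 7 nucleolar proteins, 6 rose and 1 fell, with a median log2 fold change of 0.89. Npm1 (ENSMUSG00000057113.7), nucleophosmin, an abundant nucleolar chaperone, had the highest level of the list in both groups. It stood at 132, 137 and 132 scaled RPKM in OSKM-CMs (1080, 1137 and 1073 reads) and at 43.5 and 50.05 in Control-CMs (359 and 409 reads). The OSKM-CMs libraries were close to each other and far above both controls, 2.86-fold in the mean, with an SE of 0.11 on the log2 scale (limma adjusted p = 0.000189). Reads that near-identical copies or an antisense gene could share were not separated, because the counting rule is not given in the sources used here. Gnl3 (ENSMUSG00000042354.6), nucleostemin, a nucleolar GTPase known from stem and tumour cells, had 27.8, 27.5 and 26.0 scaled RPKM in OSKM-CMs against 9.81 and 9.21 in Control-CMs. The rise was 2.85-fold with little spread in either group (1.42 on the log2 scale with an SE of 0.12, limma adjusted p = 0.000272). Ncl, nucleolin, which binds the precursor RNA, was at 15.0, 12.2 and 15.4 in OSKM-CMs and 7.10 and 7.28 in Control-CMs, and rose 1.98-fold (limma adjusted p = 0.00408). Ddx21, an RNA helicase that links RNA polymerase I transcription to processing, rose 1.94-fold (limma adjusted p = 0.00224).

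Smaller rises were found for Nolc1, a chaperone of snoRNPs, at 1.62-fold, and for Mybbp1a, a Myb-binding nucleolar protein, at 1.56-fold. Nolc1 and Mybbp1a did not pass without OSKM-CMs replicate 1, Control-CMs replicate 3 or Control-CMs replicate 5 (limma adjusted p from 0.0526 to 0.0774). Lyar, a zinc finger protein of the nucleolus, was the one gene of the list that fell. Its level was 5.98, 5.23 and 4.91 scaled RPKM in OSKM-CMs and 8.34 and 8.01 in Control-CMs, with all OSKM-CMs values below both controls. The log2 fold change was -0.53 (SE 0.15, limma adjusted p = 0.0301). The call for Lyar rested on every library: it was lost in each of the 5 fits that left one out (limma adjusted p from 0.0514 to 0.106) and with library totals alone (-0.16, adjusted p = 0.43).

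Proteins of the snoRNPs, the guide particles that modify ribosomal RNA, divided into 5 of 9 genes that rose and 4 that did not pass, with a median log2 fold change of 0.63. Box C/D particles methylate the RNA. Their scaffold protein Nop58 had 19.8, 16.7 and 17.6 scaled RPKM in OSKM-CMs and 8.00 and 9.34 in Control-CMs, a clear separation and a rise of 2.08-fold (limma adjusted p = 0.00225). Nop56, the partner scaffold, had 10.3, 11.8 and 11.2 in OSKM-CMs against 7.54 and 6.34 in Control-CMs. It rose 1.60-fold (limma adjusted p = 0.0156) but did not pass without OSKM-CMs replicate 3 (0.0538) or Control-CMs replicate 5 (0.0857). Fbl, fibrillarin, the methyltransferase itself, had 13.5, 16.7 and 15.6 scaled RPKM in OSKM-CMs and 7.81 and 8.73 in Control-CMs, and rose 1.85-fold (limma adjusted p = 0.00518). The remaining core protein, Nhp2l1, which is also part of the spliceosomal U4 particle, had overlapping values of 21.5 to 24.3 in OSKM-CMs and 22.8 to 25.6 in Control-CMs (log2 fold change -0.09, limma adjusted p = 0.60). Rrp9, a protein particular to the U3 particle, did not pass either (0.28 on the log2 scale, limma adjusted p = 0.162). Within one particle the core genes thus ranged from 2.08-fold to 0.934-fold.

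H/ACA particles convert uridine to pseudouridine. Nhp2 (ENSMUSG00000001056.3), a core protein, had 30.1, 21.3 and 32.0 scaled RPKM in OSKM-CMs and 10.7 and 11.9 in Control-CMs. Every OSKM-CMs value was well above the controls, and the mean was 2.46-fold higher (1.21 on the log2 scale with an SE of 0.18, limma adjusted p = 0.00293). Nop10, a small core protein, rose 1.43-fold but did not pass without OSKM-CMs replicate 2 or 3 or either Control-CMs library (limma adjusted p from 0.0505 to 0.131). Dkc1, dyskerin, the pseudouridine synthase, was at 7.36, 7.50 and 9.14 in OSKM-CMs and 3.68 and 6.17 in Control-CMs. Its groups did not overlap, but the controls were far apart and it did not pass (0.63 on the log2 scale with an SE of 0.21, limma adjusted p = 0.0556). Dkc1 did pass with limma voom on whole reads (adjusted p = 0.0231) and without Control-CMs replicate 5 (0.0192). Gar1 rested on 15, 12 and 9 reads in OSKM-CMs and 11 and 2 reads in Control-CMs and did not pass (limma adjusted p = 0.195), except without Control-CMs replicate 3 (0.0219), where 2 reads made up the control.

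Among small subunit assembly factors, 10 of 15 genes rose and 5 did not pass, with a median log2 fold change of 0.67. Nop14 (ENSMUSG00000036693.9), a component of the small subunit processome, the large particle that first forms on the precursor, had 9.81, 7.44 and 8.89 scaled RPKM in OSKM-CMs and 2.72 and 4.30 in Control-CMs. It rose 2.48-fold, with no overlap of the groups (1.12 on the log2 scale with an SE of 0.20, limma adjusted p = 0.00527). Rrp12, which takes part in export of subunits from the nucleus, rose 2.35-fold, with its highest value, 20.5, in OSKM-CMs replicate 3 against 14.9 and 15.9 in replicates 1 and 2 (limma adjusted p = 0.00239). Among factors known for late steps of the small subunit, Tsr1 rose 2.24-fold (limma adjusted p = 0.00187), Bysl 1.97-fold and Ltv1 1.56-fold, while Nob1 did not pass, nor did Pno1, Riok1 and Riok2 among the other genes of the pathway (limma adjusted p of 0.104, 0.429 and 0.464). Among early processome proteins that act near transcription, Wdr75, Heatr1 and Wdr43 rose 1.94-fold, 1.75-fold and 1.65-fold, while Utp15, Cirh1a and Nol11, of the other genes of the pathway, did not pass (limma adjusted p of 0.267, 0.0846 and 0.228). Utp18 and Imp4 rose 1.79-fold and 1.69-fold. Heatr1 was the least certain of these (limma adjusted p = 0.045), and its adjusted p reached 0.223 without Control-CMs replicate 5. The calls for Ltv1, Wdr43, Utp18 and Imp4 were also lost when single libraries were left out.

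The 5 small subunit genes that did not pass had log2 fold changes from -0.20 to 0.31. They were Noc4l, Nob1, Ddx10, Utp20 and Imp3. Nob1, the endonuclease that makes the final cut of the 18S RNA, stood at 6.63, 7.83 and 7.87 scaled RPKM in OSKM-CMs and 5.63 and 5.97 in Control-CMs (limma adjusted p = 0.148). Imp3 and Imp4 bind the U3 particle together, yet Imp4 rose while Imp3 had overlapping values of 22.1, 17.9 and 20.7 in OSKM-CMs and 21.9 and 24.96 in Control-CMs (log2 fold change -0.20, limma adjusted p = 0.307). Whether those genes differ from each other was not tested.

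Large subunit assembly factors had 14 of 19 genes higher and 5 not passing, with a median log2 fold change of 0.74. Nop2 (ENSMUSG00000038279.8), a methyltransferase of the large subunit RNA and a carrier of an E-box, had 17.2, 19.1 and 18.0 scaled RPKM in OSKM-CMs and 7.52 and 6.10 in Control-CMs. The spread within each group was small beside the rise of 2.66-fold (1.29 on the log2 scale with an SE of 0.14, limma adjusted p = 0.00071). Pes1, Bop1 and Wdr12 form one complex, needed to process the large subunit RNA, and all 3 genes rose. Bop1 (ENSMUSG00000022557.9) had 14.1, 16.3 and 17.6 in OSKM-CMs and 5.18 and 7.58 in Control-CMs, 2.51-fold (limma adjusted p = 0.00254). Pes1 had 15.0, 13.5 and 14.9 scaled RPKM in OSKM-CMs and 6.30 and 6.79 in Control-CMs, 2.21-fold (limma adjusted p = 0.00137). Wdr12 had 6.09, 6.73 and 6.38 in OSKM-CMs and 2.91 and 2.94 in Control-CMs, 2.19-fold (limma adjusted p = 0.00328). The 3 partners kept their calls whichever library was left out.

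Nop16 (ENSMUSG00000025869.5), a nucleolar protein of large subunit precursors, had 12.5, 14.3 and 14.0 scaled RPKM in OSKM-CMs and 4.89 and 5.99 in Control-CMs, and rose 2.50-fold (limma adjusted p = 0.0012). Mrto4, a stand-in for a stalk protein during assembly, rose 2.23-fold, with a wide range of 9.11, 13.3 and 15.8 in OSKM-CMs against 6.55 and 4.86 in Control-CMs. Mrto4 did not pass without Control-CMs replicate 5 (limma adjusted p = 0.086). Nip7 rose 2.21-fold and Noc3l 1.97-fold. Rrp1b rose 2.34-fold but did not pass without OSKM-CMs replicate 3 (limma adjusted p = 0.0501) or Control-CMs replicate 5 (0.0634). Brix1, Wdr74, Ebna1bp2 and Ddx56, a helicase, rose by 1.45-fold to 1.82-fold, and each of the 4 lost its call when single libraries were left out. Rrp1 passed narrowly, 1.28-fold higher (limma adjusted p = 0.0498). It was lost in each of the 5 fits without a library (log2 fold changes of 0.31 to 0.37). It passed in only 3 of all 10 alternatives, so some fits with all libraries lost it too. Ddx18, Rrs1, Nmd3, Gnl2 and Sdad1 did not pass, with log2 fold changes from -0.06 to 0.45. Nmd3 is the adapter that takes large subunits out of the nucleus, and its values of 11.1, 11.4 and 9.72 in OSKM-CMs overlapped the 9.81 and 6.17 of Control-CMs.

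Taking the 39 genes with a call together, 20 kept it in each of the 5 fits that left out one library and under every other alternative. They were Npm1, Ncl, Gnl3, Ddx21, Fbl, Nop58, Nhp2, Polr1e, Nop14, Wdr75, Rrp12, Bysl, Tsr1, Nop2, Nop16, Pes1, Bop1, Wdr12, Nip7 and Noc3l, all of them higher. Every role has at least one gene among them. Across the 57 genes, the level in Control-CMs and the log2 fold change had a Spearman rho of -0.20, given as a description over genes that share libraries. The median SD of log2 levels within a group was 0.12 in OSKM-CMs and 0.13 in Control-CMs.

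Other genes of the pathway, 117 symbols of which 105 were listed and 104 tested, gave the next set of values. Of these, 30 rose (28.8%, against 15.9% of all tested genes), 74 did not pass and none fell by limma, where 2 had an unadjusted p below 0.05 and a lower level; limma voom also gave none lower. Their median log2 fold change was 0.38. The number that rose was 19 without OSKM-CMs replicate 3, where 10.7% of all tested genes rose. It was 69 with library totals alone, where 36.5% of all tested genes rose. Large subunit assembly genes had 16 of 39 higher, small subunit genes 8 of 39, snoRNP assembly and RNA exosome genes 5 of 18, and further RNA polymerase I and promoter factor genes 1 of 8. That gene was Taf1d, a subunit of the promoter selectivity factor SL1, at 15.6, 14.4 and 15.3 scaled RPKM in OSKM-CMs against 4.39 and 5.39 in Control-CMs (3.09-fold, limma adjusted p = 0.000461). Exosc2, an exosome subunit, rose 4.09-fold, with 8.04 in OSKM-CMs replicate 3 beside 4.23 and 4.32 in replicates 1 and 2, against 1.35 and 1.36 in Control-CMs. Mak16, Gtpbp4 and Nol8, of the large subunit, rose 2.64-fold, 2.27-fold and 2.25-fold, and Dhx37, a helicase of the small subunit processome, rose 2.60-fold.

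**Figure D4:**
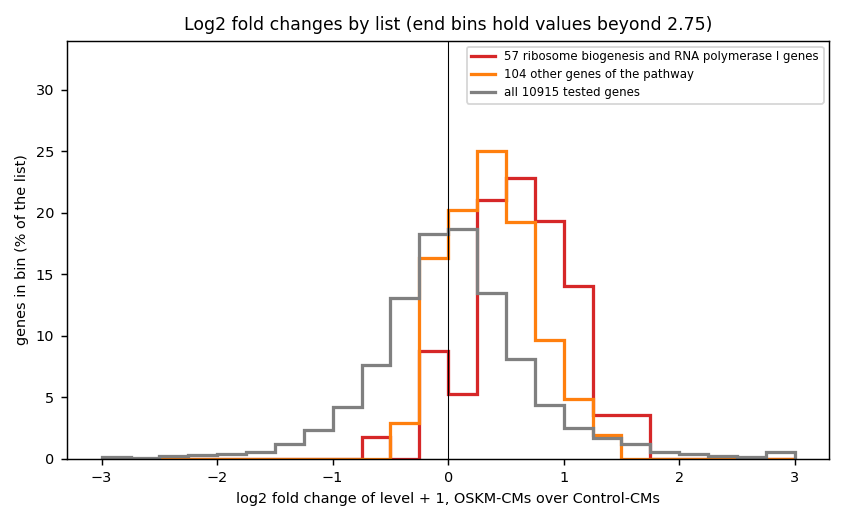
Distribution of log2 fold changes (x axis, OSKM-CMs over Control-CMs; y axis, percent of each list per bin) for the 57 genes (red), 104 other genes of the pathway (orange) and all 10915 tested genes (grey). The red outline sits right of the grey one, with medians of 0.66 and 0.02, and the orange one lies between them at 0.38.

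Both neighbouring groups of genes help to place these values. Cytosolic ribosomal protein genes, whose products the pathway assembles, had 57 of 77 tested genes higher and a median log2 fold change of 0.52. Subunits of RNA polymerases II and III had 5 of 21 higher, 2 lower and a median of 0.13. Among the polymerase subunits, Polr2e and Polr2h, which are subunits of all 3 polymerases, rose 1.57-fold and 1.72-fold (limma adjusted p = 0.00735 and 0.0243), whereas Polr2f, another shared subunit, fell to 41.7, 49.5 and 33.9 scaled RPKM in OSKM-CMs, against 56.8 and 76.6 in Control-CMs (limma adjusted p = 0.036). The remaining shared subunits, Polr2k and Polr2l, did not pass (log2 fold changes -0.06 and 0.35). Polr3g, a form of an RNA polymerase III subunit known from undifferentiated cells, rose 3.52-fold, and its paralogue Polr3gl fell (log2 fold change -0.69, limma adjusted p = 0.0269). Differences between lists were not tested.

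**Figure D5:**
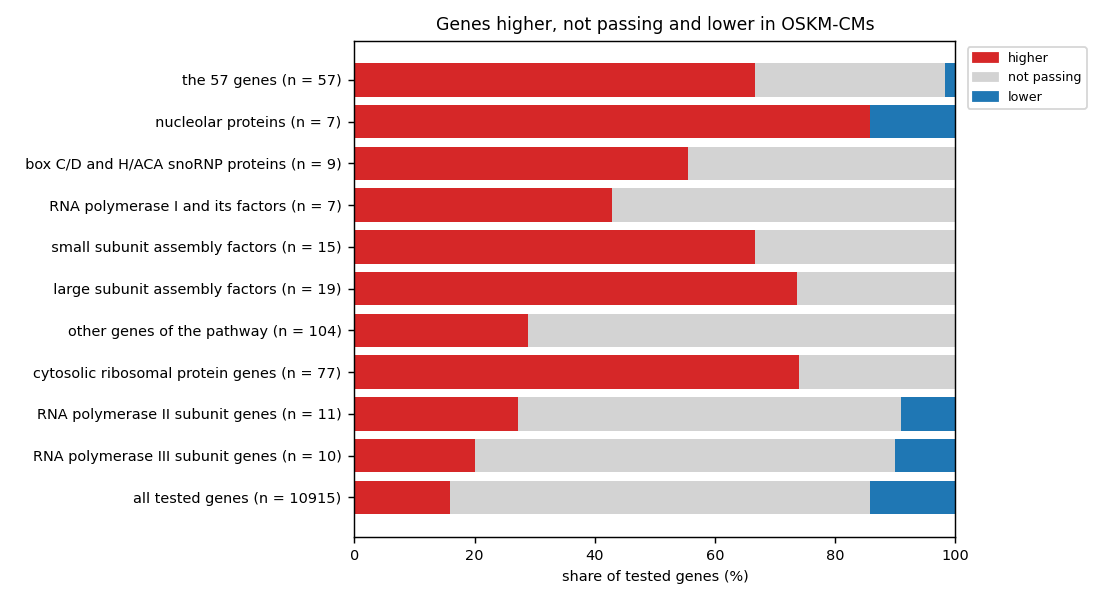
Share of tested genes (x axis, percent) that were higher (red), not passing (grey) or lower (blue) in OSKM-CMs, by list, with the number tested in brackets. Of the 57 genes 38 were higher and 1 lower, and among all tested genes 15.9% were higher and 14.3% lower.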

How the data were processed

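RNA was sequenced from 5 cardiomyocyte libraries. Trimmomatic, STAR 2.5.3, HTSeq, FastQC, CASAVA 1.8.2 and the build mm9 stand in the submitters' processing notes; annotation, strand setting and treatment of shared reads are not given in the sources used here. The library values the authors deposited behave as RPKM (reads per kilobase, scaled to depth), a unit inferred from the values. Further deposited columns of the authors hold a log2 ratio, an average log2 CPM and an FDR, a p-value adjusted over all listed genes. Whole reads were recovered from the RPKM steps (12446 genes, 100%, within 0.0001 reads), with the average log2 CPM settling a common factor for 440 genes. As a mean over genes, replicate libraries differed by more than counting noise (chi-square per gene of 3.50 to 5.81).

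RPKM were scaled by TMM factors (trimmed mean of M values, 30% of log ratios and 5% of abundances trimmed) from the recovered reads. The filter, a mean of 1 RPKM or more, left 10915 genes. Log2(scaled RPKM + 1), which understates changes of low genes, was fitted with limma 3.58.1 in R 4.3.3 (trend, robust, 2-sided), with Benjamini-Hochberg adjustment at 0.05. Fold values are ratios of mean scaled RPKM. Alternatives were other added values, no filter, library totals alone, limma voom on whole reads, and leaving out each library. The members and lists were chosen with earlier results of these data known. Values in every library are given for RNA polymerase I genes, 6 landmark genes and the genes with the largest calls, and some further genes were named after their values were seen. The read numbers given bear on counting error only, not on the spread between libraries. That spread was larger than counting error as a mean over genes, and the genes of the list were not checked separately. The floor of 3 reads for a gene at 0 is a reference value that no fit used.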

Additional observations from a re-analysis of the deposited data

How the results depend on the processing

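Of 570 values of single genes under 10 alternatives, 563 kept their direction, 64 lost a call and 17 gained one. The 7 that turned round belonged to genes without a call. Scaling by library totals alone put the median over all tested genes at 0.36 (log2), not 0.02, and gave 0.31 for Nhp2l1, 0.32 for Ubtf, 0.14 for Utp20, 0.20 for Imp3 and 0.28 for Sdad1; all 5 lay below that median. With one library left out, Ddx10 ran from -0.043 (without Control-CMs replicate 3) to 0.518 (without Control-CMs replicate 5), and Sdad1 from -0.111 (without OSKM-CMs replicate 3) to 0.022 (without OSKM-CMs replicate 2). The number of genes higher was 24 to 31 in fits that left out one library and 37 to 40 in the others, apart from 50 with library totals alone, where 36.5% of all tested genes were higher. The 1 gene lower became 0 with library totals alone and 0 in every fit that left out a library. The median log2 fold change was 0.43 with 5 added before logs, 0.99 with library totals alone, and 0.58 to 0.71 with a library left out. Among other genes of the pathway, 69 were higher with library totals alone and 19 to 26 with a library left out, and 0 to 1 were lower when a library was left out. Fits with fewer libraries have fewer degrees of freedom; with 1 control left, it is assumed to vary like the OSKM-CMs libraries. The planned quasi-likelihood count test was not run, a choice made because the deposited unit was taken as RPKM. The recovered reads would have allowed a count test, and limma voom was run on them. No paired analysis was possible because OSKM-CMs and Control-CMs have just 1 number in common. Genes with few reads, such as Gar1, are limited by depth.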
